A study of Mus musculus with 4 samples.

Results

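The genes described here are 9 members of the mouse bHLH-PAS family of transcription factors, taken by name as the rows of Npas3, Npas1, Sim2, Arnt, Arnt2, Hif1a, Epas1, Hif3a and Ahr among 53379 genes of a count table, with the clock members of the family left out. All 9 had a row with at least 1 count, and 8 passed the filter on low counts and were tested. The libraries were made from astrocytes grown from the cortex of newborn C57BL/6 mice and taken at day 14 in vitro, 2 from Npas3-/- cells and 2 from wild-type cells. Both genotypes were grown in serum-containing medium with the non-astrocytic cells shaken off, and the labels name no treatment. The way the Npas3 allele was disrupted, such as the exons removed, is not given in the sources used here. Since nothing says that libraries of the same genotype are different cultures or mice, p-values measure only how far these samples spread, and that spread may be technical.

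Proteins of this family carry a basic helix-loop-helix region, which binds DNA and pairs proteins, and PAS domains, which also pair proteins and in some members sense a signal. Members with a restricted or regulated activity pair with a general partner, ARNT or its brain-enriched relative ARNT2, and the pair binds short elements built on a CGTG core. NPAS1 and NPAS3 are close relatives known from the developing and adult brain, SIM2 is a midline factor related to Drosophila single-minded, HIF1A and EPAS1 are the oxygen-regulated HIF alpha subunits, HIF3A is another alpha paralog with variants that restrain the others, and AHR is the ligand-activated receptor for aryl hydrocarbons. HIF alpha proteins are governed mainly by oxygen-dependent destruction, so a transcript count does not measure their activity.

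Of the 9 genes, 3 lie on chromosome 12 and 3 on chromosome 7 (mm10, GENCODE M21). Npas3 (ENSMUSG00000021010.8) spans 53248677 to 54072175 on the plus strand of chromosome 12, with the Hif1a gene (ENSMUSG00000021109.13, 73901375 to 73947530) 19.8 Mb beyond its end and the Ahr gene (ENSMUSG00000019256.17, 35497974 to 35535038) 17.7 Mb before its start. Npas1 (ENSMUSG00000001988.9, 16455721 to 16477728) and Hif3a (ENSMUSG00000004328.15, 17031507 to 17062427) lie 554 kb apart on the minus strand of chromosome 7, and Arnt2 (ENSMUSG00000015709.9, 84246278 to 84410176) lies on the same chromosome. Arnt (ENSMUSG00000015522.18) is on chromosome 3, Sim2 (ENSMUSG00000062713.7) on chromosome 16 and Epas1 (ENSMUSG00000024140.9) on chromosome 17.

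RefSeq promoters (GRCm38.p6, 250 bases before to 50 after the annotated start) were found for 6 of the 9 genes, and 3 are shown. That of Npas3 (chr12:53248182-53248481, plus strand) is shown because the gene is the one targeted, that of Npas1 (chr7:16476731-16477030, minus strand) because its transcript differed between genotypes with and without the correction described further on, and that of Hif1a (chr12:73907617-73907916, plus strand) because it holds the most ACGTG matches of the 6. Each reads 5′ to 3′ on the gene's strand, and capitals mark ACGTG, the core of the hypoxia response element, on either strand.
Npas3: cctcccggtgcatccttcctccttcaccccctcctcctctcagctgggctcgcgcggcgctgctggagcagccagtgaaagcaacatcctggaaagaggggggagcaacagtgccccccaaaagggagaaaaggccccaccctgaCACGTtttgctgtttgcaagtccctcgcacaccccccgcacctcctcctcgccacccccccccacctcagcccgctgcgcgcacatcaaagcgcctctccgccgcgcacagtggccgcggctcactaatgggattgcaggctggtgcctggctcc
Npas1: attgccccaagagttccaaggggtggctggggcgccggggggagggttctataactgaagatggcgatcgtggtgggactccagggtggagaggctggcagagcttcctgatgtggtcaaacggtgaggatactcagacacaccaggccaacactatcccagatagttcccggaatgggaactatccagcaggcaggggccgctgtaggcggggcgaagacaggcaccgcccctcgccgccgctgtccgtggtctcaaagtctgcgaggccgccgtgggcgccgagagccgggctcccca
Hif1a: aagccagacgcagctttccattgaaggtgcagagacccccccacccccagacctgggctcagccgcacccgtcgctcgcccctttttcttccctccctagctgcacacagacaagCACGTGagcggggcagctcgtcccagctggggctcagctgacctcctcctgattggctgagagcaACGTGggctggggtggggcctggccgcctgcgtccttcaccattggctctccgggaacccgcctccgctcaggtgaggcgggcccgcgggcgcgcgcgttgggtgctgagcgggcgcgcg
The Npas3 promoter held 1 match, read on the opposite strand, whose leftmost base as printed lies at position -105 from the annotated start. The Hif1a promoter held 3, at -135, -134 and -70, and the first 2 are the overlapping matches of a single CACGTG. The promoters of Npas1, Arnt, Arnt2 and Hif3a held none. Of the 32851 promoters of the same length, 19.6% held ACGTG on either strand and 7.15% held CACGTG. The AHR element core GCGTG, also part of hypoxia elements, occurred once in the Arnt promoter and 2 times in that of Hif3a, and in 32.4% of all promoters. These matches are letters in the windows, and binding was not measured.

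The 4 libraries held between 82965565 and 86932708 counts, and levels are given as CPM, counts scaled to each library's TMM-adjusted total. Of 18838 genes tested between genotypes, 6232 passed an adjusted p of 0.05, or 33.1% (quasi-likelihood test of edgeR, p adjusted after Benjamini and Hochberg over every tested gene), 2188 higher and 4044 lower in Npas3-/-. The fold changes of all tested genes followed the GC content of the transcripts (Spearman's rho 0.669 across genes, which are not independent replicates), so each member's value is also given with a correction that removes a smooth trend on GC content and length from each library. With that correction 1580 genes passed, or 8.39%. A real genotype difference that runs along GC content or length is removed with the trend. The astrocyte markers Gfap, Slc1a3, Aldh1l1, Aldoc and Sox9 were detected in every library, and the 9 markers listed for astrocytes summed to 4875 and 4877 CPM in Npas3-/- and 3078 and 3900 CPM in wild type. Gfap and Aldoc rose, Gja1, Aqp4 and Slc1a2 fell, and S100b stood under 1 CPM in all 4 libraries. Over all tested genes 11.6% were called higher and 21.5% lower. With the correction Gfap, Aldoc, Gja1 and Aqp4 stayed called. Slc1a2 did not, at a log2 fold change of -0.39 (edgeR, adjusted p = 0.441). The oligodendrocyte-lineage genes Olig1 and Olig2 were also abundant in both genotypes, while Sox10, a defining marker of that lineage, had 0 and 8 counts in Npas3-/- and 0 and 5 in wild type. Microglial markers summed to 2.62 and 3.70 CPM in Npas3-/- and 2.78 and 2.19 CPM in wild type, and those of mural cells and fibroblasts to 101 and 120 CPM in Npas3-/- and 153 and 143 CPM in wild type. Col1a1 and Pdgfrb made up most of the mural and fibroblast sum. Of 4 genes tested in that list, Rgs5 and Dcn fell and none rose. Rgs5 had 0.386 and 0.312 CPM in Npas3-/- and 3.82 and 11.5 CPM in wild type. Dcn had 5 and 0 counts in Npas3-/- and 48 and 137 in wild type. With the correction Rgs5 stayed called and Dcn did not (edgeR, adjusted p = 0.0344 and 0.133). In bulk RNA, fewer cells of a type and less RNA per cell cannot be told apart.

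Npas3, the targeted gene, had 2055 and 1386 counts in Npas3-/- replicates 1 and 2, against 5129 and 8739 in wild-type replicates 1 and 2. As levels these were 24.8 and 18.0 CPM in Npas3-/- and 57.7 and 93.3 CPM in wild type. The 2 genotypes did not overlap, and the wild-type libraries differed from each other 1.62-fold. The transcript fell to 21.4 ± 4.81 CPM in Npas3-/-, against 75.5 ± 25.2 CPM in wild type (SD, n = 2 each), with a log2 fold change of -1.82 (edgeR, SE 0.33, adjusted p = 0.0181). Npas3 RNA was thus still counted in the knockout libraries, at 28.3% of the wild-type level. A count over the whole gene does not show which exons these reads cover. The antisense gene 1700060O08Rik, which shares 83 exon bases with Npas3, had 0 counts in every library. Leaving out Npas3-/- replicate 2 gave -1.60 (edgeR, adjusted p = 0.101).

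The Npas3 transcript has a GC content of 47.2%, and the fitted trend for a transcript of its GC content and length was a log2 difference of -1.17 between Npas3-/- and wild type. With the trend removed the log2 fold change was -0.65 (edgeR, SE 0.21, adjusted p = 0.111), and the corrected levels were 32.8 and 30.6 CPM in Npas3-/- and 41.1 and 58.5 CPM in wild type, which still did not overlap. The genes closest to Npas3 over the 4 samples were sought by Euclidean distance of mean-centred log2 CPM without the correction. The search covered 11027 genes of at least 5 CPM on average, without clone and model names. The 5 closest were Zc2hc1a (distance 0.052), Zeb1 (0.079), Fut8 (0.082), Snhg11 (0.087) and Ntm (0.091). Their transcripts have between 38.55% and 46.11% GC, which like the 47.2% of Npas3 is below the median of 50.24% over tested genes. No trend was computed for these 5 genes, and the part of GC content in their likeness to Npas3 was not tested. Zeb1, which encodes a zinc finger repressor, had 28.9 and 21.6 CPM in Npas3-/- and 64.4 and 112 CPM in wild type.

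**Figure D1:**
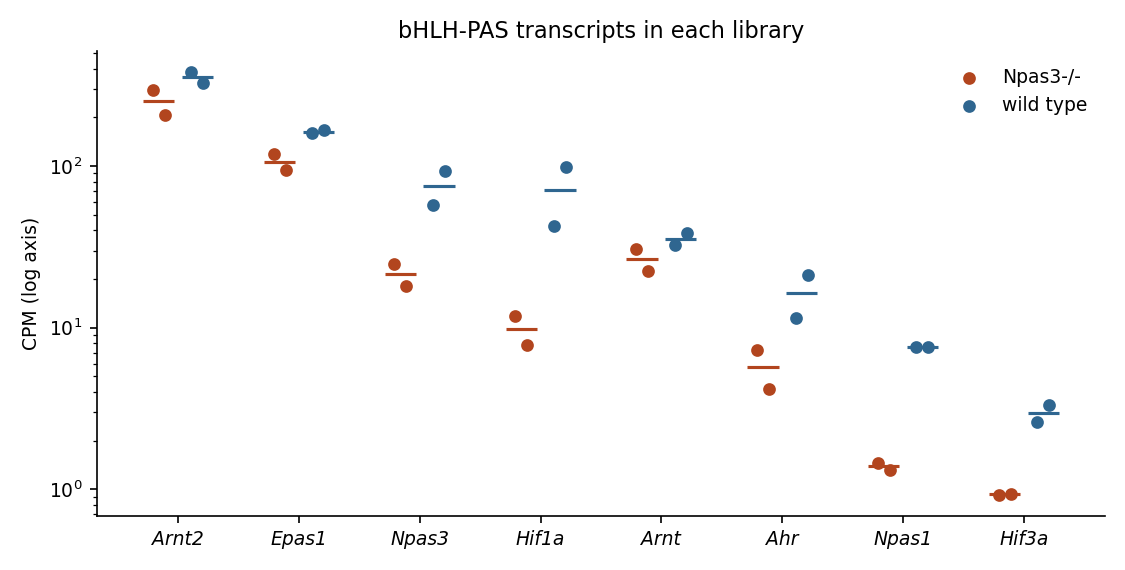
CPM of the 8 tested members in each library, on a log axis. Points are libraries, 2 per genotype, and lines are means; for each of the 8 genes both Npas3-/- points lie below both wild-type points, with the widest gap for Npas1.

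Across the members, both Npas3-/- libraries lay below both wild-type libraries for each of the 8 tested genes, a pattern that 40.1% of all tested genes had and that 35.7% had the other way round. Of the 8, 4 fell (Npas1, Hif1a, Npas3 and Hif3a) and 0 rose, beside 21.5% of all tested genes called lower and 11.6% called higher. The median log2 fold change of the 8 was -1.59, beside -0.07 over all tested genes. With the correction for GC content and length 1 of the 8 fell, Npas1, and 0 rose, where 3.81% of all tested genes were called lower and 4.58% higher, and the median was -0.51, beside -0.034 over all tested genes. In the corrected levels the Npas3-/- libraries lay below the wild-type libraries for 5 members, above them for 1 and overlapped them for 2. The share of all tested genes with each corrected pattern was not computed, so these counts have no background beside them. Without Npas3-/- replicate 2 none of the 8 passed in the uncorrected edgeR test, while 4 had an unadjusted p below 0.05 and DESeq2 called 3 on the same samples.

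**Figure D2:**
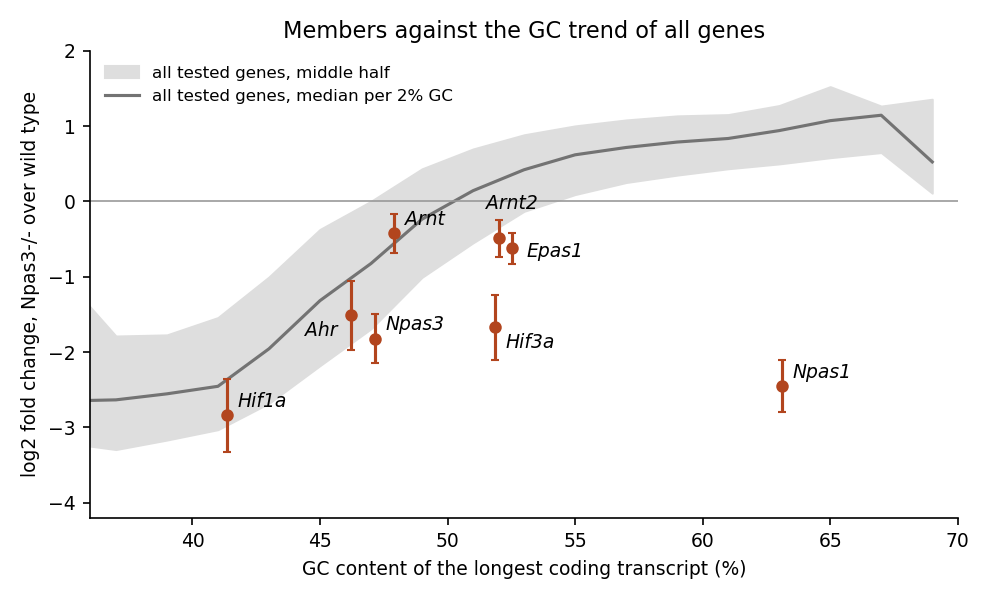
Log2 fold change of each tested member (points, bars SE) against the GC content in percent of its longest coding transcript. The grey line is the median of all tested genes in bins of 2% GC and the band holds the values between their quartiles; Hif1a, Ahr and Arnt lie within the band and Npas1, at 63.1% GC, lies far below it.

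Npas1, the nearest relative of Npas3 and a repressor known from forebrain neurons, fell to 1.39 ± 0.088 CPM in Npas3-/-, against 7.61 ± 0.018 CPM in wild type (SD, n = 2 each). It had 120 and 102 counts in Npas3-/- and 675 and 714 in wild type. The libraries of a genotype lay close together, with 1.45 and 1.32 CPM in Npas3-/- and 7.60 and 7.63 CPM in wild type. The log2 fold change was -2.46 (edgeR, SE 0.34, adjusted p = 0.0134). Npas1 has the most GC-rich transcript of the tested members, and transcripts of its GC content and length were on trend higher in Npas3-/- by 1.01 on the log2 scale. With the trend removed the corrected levels were 1.18 and 0.806 CPM in Npas3-/- and 9.42 and 12.4 CPM in wild type, a log2 fold change of -3.46 (edgeR, SE 0.39, adjusted p = 0.0230). Of all tested genes, 2.38% had a lower corrected log2 fold change.

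The Npas1 call changed with the libraries and the fit. Its log2 fold change was -2.53 without Npas3-/- replicate 1 (edgeR, adjusted p = 0.0452) and -2.39 without Npas3-/- replicate 2 (edgeR, adjusted p = 0.0803). With the correction it was -3.19 without Npas3-/- replicate 2 (adjusted p = 0.149) and -3.72 without Npas3-/- replicate 1 (adjusted p = 0.0677), both by edgeR, and with all 4 libraries and the replicate number as a block -3.47 (edgeR, adjusted p = 0.0741). In the 4 settings that ended the Npas1 call, edgeR called 0 genes in all, with between 3629 and 5728 at an unadjusted p below 0.05. Some neuronal markers also differed between the genotypes. Of 5 tested, Map2 and Syt1 fell and none rose, beside 21.5% of all tested genes called lower and 11.6% called higher. With the correction Map2 stayed called and Syt1 did not (edgeR, adjusted p = 0.0232 and 0.163). Rbfox3 and Snap25 had 0 counts in both Npas3-/- libraries. In wild type Rbfox3 had 4 and 25 counts and Snap25 had 5 and 35. The 7 neuronal markers summed to 73.7 and 85.1 CPM in Npas3-/- and 90.1 and 76.0 CPM in wild type, and Tubb3 alone gave 65.2 and 79.6 CPM in Npas3-/- and 45.9 and 21.9 CPM in wild type. Map2 had 4.43 and 1.82 CPM in Npas3-/- and 36.4 and 45.0 CPM in wild type. The part of neuronal RNA in the Npas1 difference was not tested.

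Sim2, the single-minded relative, had 0 and 0 counts in Npas3-/- and 40 and 0 counts in wild-type replicates 1 and 2. A count of 0 allows up to 3 counts, which is between 0.032 and 0.0389 CPM by library and covers counting error only. The gene was seen in a single library and was not tested.

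Without the correction the general partners were the members with the smallest fold changes. Arnt2 had 297 and 208 CPM in Npas3-/- and 382 and 327 CPM in wild type. Its log2 fold change was -0.49 (edgeR, SE 0.25, adjusted p = 0.177), and with the correction -0.20 (edgeR, SE 0.17, adjusted p = 0.490). Neither value passed, and the corrected levels of the genotypes overlapped. Arnt had 30.8 and 22.3 CPM in Npas3-/- and 32.5 and 38.6 CPM in wild type, a log2 fold change of -0.42 (edgeR, SE 0.26, adjusted p = 0.254). With the correction its sign turned, to 0.29 (edgeR, SE 0.19, adjusted p = 0.364). The antisense gene Gm30873 shares 214 exon bases with Arnt2 and had between 126 and 212 counts per library.

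Hif1a, the broadly expressed oxygen-regulated alpha subunit, had the largest uncorrected fall of the members. It had 985 and 604 counts in Npas3-/- and 3773 and 9263 in wild type, or 11.9 and 7.84 CPM in Npas3-/- and 42.5 and 98.9 CPM in wild type. The genotypes did not overlap, but the wild-type libraries differed 2.33-fold from each other. The log2 fold change was -2.84 (edgeR, SE 0.48, adjusted p = 0.0169). The Hif1a transcript is also the poorest in GC of the members, at 41.3%, and the trend at its GC content and length was -2.21 between genotypes and 0.89 between wild-type replicate 2 and wild-type replicate 1. With the trend removed the levels were 22.7 and 19.0 CPM in Npas3-/- and 26.9 and 33.8 CPM in wild type, a log2 fold change of -0.54 (edgeR, SE 0.20, adjusted p = 0.138). Without Npas3-/- replicate 2 the uncorrected value was -2.56 (edgeR, adjusted p = 0.0871), without wild-type replicate 2 it was -2.12 (edgeR, adjusted p = 0.0182), and without wild-type replicate 1 it was -3.34 (edgeR, adjusted p = 0.00411). Gm49321, a coding gene on the same strand that shares 148 exon bases with Hif1a, had 0 and 0 counts in Npas3-/- and 21 and 120 in wild type.

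Epas1, which encodes HIF2 alpha, is known for high levels in astrocytes and endothelial cells. It had 118 and 93.9 CPM in Npas3-/- and 161 and 166 CPM in wild type, with no overlap. Its log2 fold change was -0.62 (edgeR, SE 0.21, adjusted p = 0.0653) and -0.48 with the correction (edgeR, SE 0.14, adjusted p = 0.0910). It crossed the threshold under 3 of 17 alternatives, with a filter of 5 CPM, with DESeq2 and with a crossed replicate block, at adjusted p between 0.0344 and 0.0469. The endothelial markers summed to 17.0 and 11.9 CPM in Npas3-/- and 14.8 and 12.5 CPM in wild type, of which Tek and Cdh5 had 0 counts in both Npas3-/- libraries and Cldn5 0 in both wild-type libraries. Of 4 endothelial markers tested 1 fell, Tek, and none rose, beside 21.5% of all tested genes called lower and 11.6% called higher. With the correction Tek did not pass (edgeR, adjusted p = 0.0585). The part of endothelial RNA in the Epas1 values was not tested.

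Hif3a, the remaining alpha paralog, was the scarcest member tested. It had 77 and 72 counts in Npas3-/- and 231 and 313 in wild type, or 0.929 and 0.935 CPM in Npas3-/- and 2.60 and 3.34 CPM in wild type. The log2 fold change was -1.67 (edgeR, SE 0.43, adjusted p = 0.0370). At 51.9% GC the trend for this transcript was -0.34, and the corrected value was -1.32 (edgeR, SE 0.41, adjusted p = 0.0995). Each library was also dropped in turn from the uncorrected edgeR fit. Dropping Npas3-/- replicate 1 gave a log2 fold change of -1.67, and dropping Npas3-/- replicate 2 gave -1.67. Dropping wild-type replicate 1 gave -1.86, and dropping wild-type replicate 2 gave -1.49. The size of the Hif3a difference thus moved little, while its call was kept or lost depending on the library dropped.

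Ahr, whose product enters the nucleus when it binds a ligand, had 603 and 320 counts in Npas3-/- and 1014 and 1987 in wild type. These were 7.28 and 4.15 CPM in Npas3-/- and 11.4 and 21.2 CPM in wild type, with no overlap and a 1.86-fold difference between the wild-type libraries. The log2 fold change was -1.51 (edgeR, SE 0.46, adjusted p = 0.0537). It passed without wild-type replicate 1, at -1.91 (edgeR, adjusted p = 0.0252). It did not without wild-type replicate 2 at -1.01 (adjusted p = 0.163), without Npas3-/- replicate 1 at -1.97 (adjusted p = 0.0710) or without Npas3-/- replicate 2 at -1.16 (adjusted p = 0.216), each by edgeR. The trend at its 46.2% GC and its length was -1.37, and with it removed the log2 fold change was -0.15 (edgeR, SE 0.32, adjusted p = 0.797) and the corrected levels overlapped, at 10.4 and 7.54 CPM in Npas3-/- and 7.74 and 12.1 CPM in wild type.

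**Figure D3:**
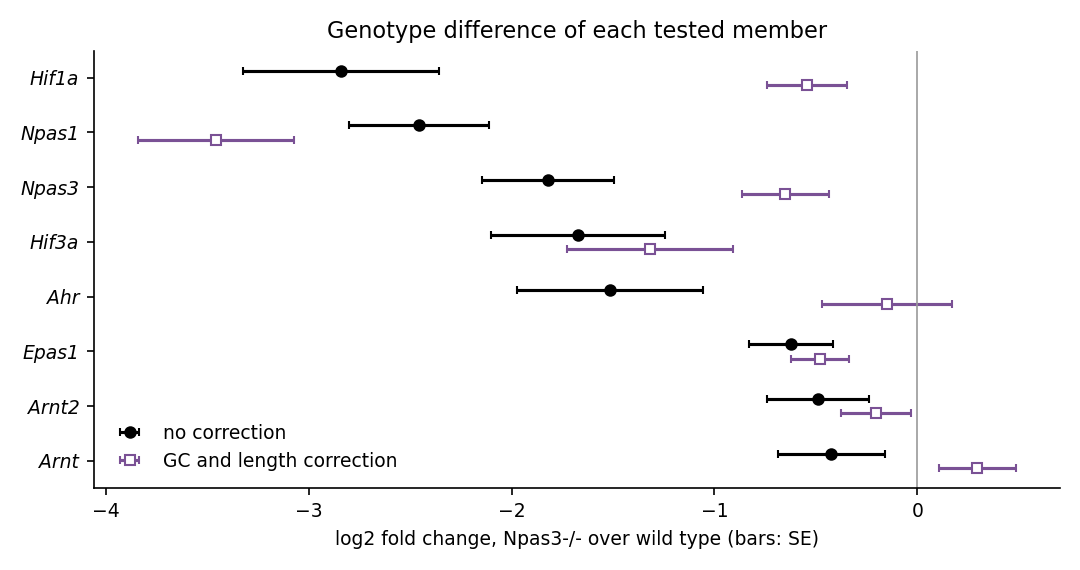
Log2 fold change of each tested member, Npas3-/- over wild type, with bars for the SE, in the edgeR fit without correction (filled circles) and with the GC and length correction (open squares). The correction moved Hif1a, Npas3 and Ahr toward 0 and Npas1 away from it, and turned the sign of Arnt.

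Between genes, levels were compared as RPKM, CPM per kilobase of merged exons. In Npas3-/- the order of mean levels was Arnt2, Epas1, Npas3, Arnt, Hif1a, Ahr, Npas1, Hif3a and Sim2, and in wild type Arnt2, Epas1, Npas3, Hif1a, Arnt, Ahr, Npas1, Hif3a and Sim2. Arnt2 stood at 32.8 ± 8.12 RPKM in Npas3-/- and 46.1 ± 5.06 RPKM in wild type, and Epas1 at 19.0 ± 3.07 RPKM in Npas3-/- and 29.2 ± 0.670 RPKM in wild type (SD, n = 2 each). Npas3 stood at 3.56 ± 0.801 RPKM in Npas3-/- and 12.6 ± 4.19 RPKM in wild type. Neighbours that overlapped were Npas3 and Arnt in Npas3-/-, and in wild type Npas3 and Hif1a, and Ahr and Npas1. With the length of the longest coding transcript in place of merged exons, 7 of 9 places in Npas3-/- and 5 of 9 in wild type stayed as given, and Arnt2 and Epas1 stayed the highest pair.

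The balance of paralogs was read as a ratio of RPKM within each library and is given as a description; the smallest p an exact permutation test of 2 against 2 libraries can give, two-sided, is 0.333. Arnt2 exceeded Arnt 10.0-fold and 9.74-fold in Npas3-/- and 12.2-fold and 8.82-fold in wild type, so the genotypes overlapped. With the trend removed they did not: the log2 Arnt2 to Arnt ratio was 3.08 and 3.10 in Npas3-/- and 3.83 and 3.35 in wild type, a difference of -0.50. Epas1 exceeded Hif1a 10.5-fold and 12.6-fold in Npas3-/- and 3.99-fold and 1.77-fold in wild type. The log2 Epas1 to Hif1a ratio was thus higher in Npas3-/- by 2.11, but with each library's GC and length trend removed the difference was 0.060 and the genotypes overlapped. The log2 Npas1 to Npas3 ratio was -3.10 and -2.77 in Npas3-/- and -1.93 and -2.62 in wild type. With the trend removed it was -3.80 and -4.25 in Npas3-/- and -1.13 and -1.24 in wild type, a difference of -2.84.

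**Figure D4:**
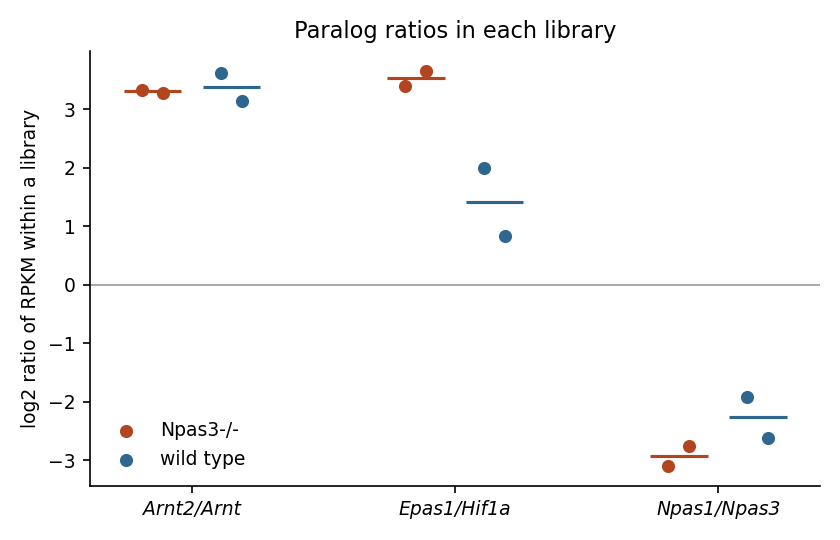
Log2 ratio of RPKM for 3 pairs of paralogs within each library, without GC correction. Points are libraries and lines are means; the Epas1 to Hif1a ratio is higher in both Npas3-/- libraries, the Npas1 to Npas3 ratio is lower in both, and the Arnt2 to Arnt ratio overlaps.

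Outside the 9 members, the PAS family holds other non-clock genes and the p160 coactivators, which also carry bHLH and PAS regions. Of 6 such genes 5 were tested, 2 fell and 0 rose, or 40% called beside 33.1% of all tested genes. With the correction 20% were called, beside 8.39% of all tested genes. The median log2 fold change was -1.61, or -0.85 with the correction, beside -0.07 and -0.034 over all tested genes. The coactivator genes Ncoa1 and Ncoa2 fell, with 16.2 and 6.92 CPM of Ncoa1 in Npas3-/- and 56.1 and 72.7 CPM in wild type, and 14.8 and 7.91 CPM of Ncoa2 in Npas3-/- and 32.2 and 57.7 CPM in wild type. Their log2 fold changes were -2.47 and -1.99 (edgeR, adjusted p = 0.0191 and 0.0271). Ncoa3, another of them, had a log2 fold change of -0.76 and did not pass. With the correction Ncoa1 passed, at -1.58 (edgeR, adjusted p = 0.0365), and Ncoa2 did not, at -0.85. Sim1 had 0 counts in every library.

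Genes that control HIF alpha stability and activity went both ways. Of 15 tested, 4 rose (Egln3, Rbx1, Elob and Egln2) and 5 fell (Cul2, Crebbp, Eloc, Sirt1 and Ep300), beside 11.6% of all tested genes called higher and 21.5% called lower. The median log2 fold change was 0.31, and -0.059 with the correction. The prolyl hydroxylase gene Egln3, itself a HIF target, had 126 and 122 CPM in Npas3-/- and 41.6 and 28.6 CPM in wild type, a log2 fold change of 1.82, and 1.59 with the correction (edgeR, adjusted p = 0.0133 and 0.0232). Components of the VHL ubiquitin ligase differed in direction: the scaffold gene Cul2 had 5.64 and 6.13 CPM in Npas3-/- and 25.1 and 49.5 CPM in wild type, while Rbx1 had 182 and 238 CPM in Npas3-/- and 118 and 100 CPM in wild type. Vhl itself had a log2 fold change of 0.75 and did not pass. The coactivator gene Crebbp had 25.1 and 14.4 CPM in Npas3-/- and 69.6 and 91.2 CPM in wild type. With the correction 3 rose (Egln3, Rbx1 and Siah1a) and 2 fell (Crebbp and Ep300), or 33.3% called beside 8.39% of all tested genes. The log2 fold change of Siah1a turned sign with the correction, from -0.41 to 0.99. Cul2 stood at -0.46 with the correction and did not pass. Genes named here beyond the 3 with the smallest p in a list were chosen after their values were seen.

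Of 26 HIF target genes 5 rose and 5 fell, or 38.5% called beside 33.1% of all tested genes, a share near the background. Their median log2 fold change was 0.29, or 0.19 with the correction. Those that rose were Ndrg1, a stress-response gene, the glycolytic genes Eno1 and Aldoa, the collagen prolyl hydroxylase gene P4ha2 and the glucose transporter gene Slc2a1. Those that fell were the mitophagy genes Bnip3l and Bnip3, the histone demethylase gene Kdm3a, the oxidase gene Ero1l and the pyruvate dehydrogenase kinase gene Pdk1. Ndrg1 had 1075 and 1042 CPM in Npas3-/- and 350 and 215 CPM in wild type, a log2 fold change of 1.90 (edgeR, adjusted p = 0.0150). Bnip3l had 21.8 and 16.1 CPM in Npas3-/- and 67.0 and 89.3 CPM in wild type, and Kdm3a 9.46 and 6.76 CPM in Npas3-/- and 28.6 and 44.1 CPM in wild type. Vegfa, the angiogenic factor gene and a classic HIF target, had 63.7 and 65.3 CPM in Npas3-/- and 55.0 and 71.0 CPM in wild type, which overlapped. With the correction 3 rose (Ndrg1, Mxi1 and P4ha1) and 1 fell (Adm), or 15.4% called beside 8.39% of all tested genes. The log2 fold change of P4ha1 turned sign with the correction, from -0.30 to 0.93. None of the 5 that fell without the correction passed with it. Of the 5 that rose without it only Ndrg1 passed, and the sign of Aldoa turned, to -0.20.

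Among the genes of the AHR chaperone complex, the p23 gene Ptges3 fell, with 32.9 and 30.5 CPM in Npas3-/- and 129 and 139 CPM in wild type, a log2 fold change of -2.08 (edgeR, adjusted p = 0.0130). With the correction it was -0.75 and did not pass (edgeR, adjusted p = 0.0550). Of 9 AHR targets 8 were tested, 1 rose and 3 fell, or 50% called beside 33.1% of all tested genes. Cyp1b1, which encodes a cytochrome P450 of xenobiotic and steroid metabolism, fell, with 22.6 and 17.4 CPM in Npas3-/- and 166 and 245 CPM in wild type, a log2 fold change of -3.36 (edgeR, SE 0.30, adjusted p = 0.0130). With the correction it was -2.01 (edgeR, adjusted p = 0.0230). Tiparp and Nfe2l2 fell as well, at log2 fold changes of -2.97 and -1.29, and did not pass with the correction. Cyp1a1, the classic AHR target, was the 1 that rose, with 24 and 39 counts in Npas3-/- and 0 and 0 in wild type. Its mean CPM in Npas3-/- was 12.1-fold the mean wild-type floor of 3 counts per library. That ratio leaves out the counting error of the Npas3-/- libraries. The corrected adjusted p of Cyp1a1 was 0.0533 (edgeR). With the correction Nqo1 was called as higher and Cyp1b1 as lower, or 25% called beside 8.39% of all tested genes. The median log2 fold change of the 8 was 0.0063, or 0.44 with the correction, and Cyp1a1 is the highest of them also against the floor of 3 counts.

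A last list held 4 genes linked to NPAS1 or NPAS3 in earlier work on brain or cells. Of these, 1 rose and 1 fell, or 50% called beside 33.1% of all tested genes. The median log2 fold change was 0.37, or 0.19 with the correction. Reln, the extracellular guidance gene, had 23 and 28 counts in Npas3-/- and 664 and 747 in wild type, and its log2 fold change was -4.59 (SE 0.41) and -3.83 with the correction (edgeR, adjusted p = 0.0130 and 0.0230). Fgfr1, the fibroblast growth factor receptor gene, had 929 and 824 CPM in Npas3-/- and 553 and 471 CPM in wild type, a log2 fold change of 0.78 (edgeR, adjusted p = 0.0441) that was 0.61 with the correction and did not pass (edgeR, adjusted p = 0.0593). Vgf had a log2 fold change of 0.59, and its genotypes overlapped. Over the 6 lists 29 of 61 different genes tested were called, 12 higher and 17 lower, which is 47.5% beside 33.1% of all tested genes. With the correction 13 of the 61 were called, or 21.3% beside 8.39% of all tested genes. The lists were chosen with earlier results known, so these shares are a description. Without the correction the count was 16 without Npas3-/- replicate 1 and 18 without wild-type replicate 2. Without Npas3-/- replicate 2 the edgeR test called 0 of them, with 27 at an unadjusted p below 0.05 and 19 called by DESeq2.

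**Figure D5:**
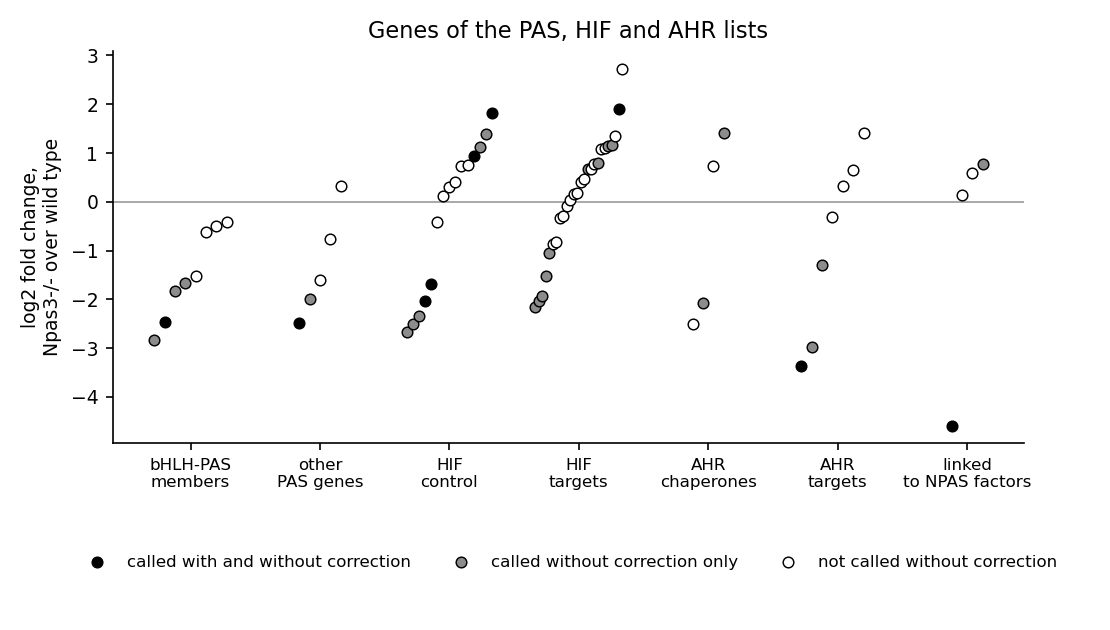
Log2 fold change of every tested gene in the members' list and the 6 related lists, Npas3-/- over wild type, one point per gene, without Cyp1a1, which had 0 counts in wild type. Fill shows whether the gene was called with and without the GC and length correction; HIF control and target genes spread to both sides of 0, while the 8 tested members all lie below it.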

How the data were processed

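RNA sequencing counts of mouse cortical astrocytes, 2 Npas3-/- and 2 wild-type libraries, were read from a table of raw counts per gene that the authors deposited. The submitters' processing notes name mm10 as the build and list featureCounts, HISAT2 2.1.0 and Trimmomatic 0.3.8. Which annotation was counted, whether strand was used and how shared reads were treated is not given in the sources used here, so counts of overlapping genes are uncertain. Identifiers were matched without version numbers to GENCODE M21 (53274 of 53379, of which 2670 carried another version). Library totals were between 82965565 and 86932708 counts.

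Genotypes were compared with the quasi-likelihood test of edgeR 4.0.16 in R 4.3.3, with TMM normalization and filterByExpr at a minimum count of 10, without covariates, over 4 samples, with Benjamini-Hochberg adjustment over all tested genes and a threshold of 0.05. The SE is the log2 fold change over the square root of F. The correction fitted, per library, natural splines with 6 degrees of freedom in transcript GC content and in log2 length to the deviation of log2 CPM (pseudocount 2) from the gene's mean, over genes of at least 1 CPM, and entered the fit as offsets. Alternatives were DESeq2 size factors, other filters, DESeq2 1.42.0, limma-voom (limma 3.58.1), replicate blocks and leaving out each sample. Fits were tested on simulated data with known changes.

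Members, lists and the correction were chosen with earlier results of these data known. Named genes are the members, the 3 tested genes with the smallest p in each list and the 5 genes nearest to Npas3, and others are said to be chosen after their values were seen. Protein sequences were not used here, and some genes of the lists are not reported here.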

Additional observations from a re-analysis of the deposited data

How the results depend on the processing

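Of the alternatives, removing the GC and length trend and leaving out a library changed the most. Without a filter on low counts 3997 genes were called in place of 6232, and with the correction 1580. With the correction the members called numbered 1, the genes called in the related lists 13 in place of 29, and the log2 fold change of Npas3 was -0.65 (adjusted p = 0.111 by edgeR). That of Arnt turned to 0.29 with the correction, and to 0.29 with the correction and the replicate block.

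The labels do not say that the replicate numbers pair the samples, and the deviations of same-numbered libraries correlated at -0.322 across genes. With the replicate number as a block 2560 genes were called, and 14 in the related lists. With the block and the correction edgeR called 0 genes, 0 members and 0 listed genes, with 4277, 4 and 23 at an unadjusted p below 0.05, and Npas3 stood at -0.63 (adjusted p = 0.213 by edgeR). In a crossed replicate block, added after the data were seen, 7670 genes were called.

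Leaving out each library in turn gave between 0 and 5832 genes called, between 0 and 5 members, between 0 and 31 listed genes, and a log2 fold change of Npas3 between -2.14 and -1.45. The 0 genes came without Npas3-/- replicate 2, when 5728 had an unadjusted p below 0.05 in edgeR while DESeq2 called 3635. With the correction and without Npas3-/- replicate 1, edgeR called 0 genes, 0 members and 0 listed genes, with 4526, 1 and 20 at an unadjusted p below 0.05, and Npas3 stood at -0.71 and Arnt at 0.18. Without Npas3-/- replicate 2 it called 0 of each, with 3629, 2 and 18 at an unadjusted p below 0.05, and Npas3 stood at -0.61, Arnt at 0.44 and Ahr at 0.061. Without wild-type replicate 1 it called 1809 genes, 2 members and 15 listed genes, and Arnt stood at 0.19. Without wild-type replicate 2 it called 556 genes, 1 member and 8 listed genes, and Npas3 stood at -0.39, Arnt at 0.39 and Ahr at 0.19. For Npas1 the log2 fold change stayed between -3.72 and -2.39 over 16 alternatives, and 4 of them ended its call.

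With the longest transcript as the length, 7 of 9 members in Npas3-/- and 5 of 9 in wild type kept their place in the order of levels. With the trend removed, added after the data were seen, the difference of log2 ratios between Npas3-/- and wild type was -0.50 for Arnt2 to Arnt, 0.060 for Epas1 to Hif1a and -2.84 for Npas1 to Npas3. The cause of these changes was not tested. Counts of 0 limit what can be said of Sim2 in Npas3-/- and of Cyp1a1 in wild type.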

Other observations

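Several genes of the related lists stood far apart between libraries of one genotype, and all but Hsp90aa1 were chosen after their values were seen. Epo, the HIF target that encodes erythropoietin, had 1212 and 4 counts in Npas3-/- replicates 1 and 2 and 17 and 520 counts in wild-type replicates 1 and 2. Hsp90aa1, the inducible form of the chaperone that holds AHR, had 54.9 and 55.3 CPM in Npas3-/- and 95.7 and 528 CPM in wild type. Pfkfb3, a glycolytic regulator, had 71.8 and 122 CPM in Npas3-/- and 66.3 and 176 CPM in wild type. None of these 3 was called by edgeR's quasi-likelihood test.

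Npas4, the activity-induced member of the family, had 9 and 74 counts in Npas3-/- and 217 and 77 in wild type, and Ahrr, which encodes the AHR repressor, had 131 and 60 in Npas3-/- and 116 and 55 in wild type. Neither was called.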
